A study of Homo sapiens with 34 samples.

Results

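MIR155HG, MIR17HG, DLEU2, DLEU1, MALAT1, NEAT1, GAS5 and SNHG1 are long non-coding RNA genes, most of which carry smaller RNAs within their transcripts. These 8 genes were chosen by name, with earlier results of these data known, out of 31975 genes in the expression table. All 8 had enough reads to be tested. They were followed across 34 established human B-cell lymphoma cell lines, each sequenced once from total RNA and grouped by the pathology in the labels: 11 lines of mantle cell lymphoma (MCL), 14 of germinal centre B-cell-like diffuse large B-cell lymphoma (GCB DLBCL), 6 of activated B-cell-like diffuse large B-cell lymphoma (ABC DLBCL) and 3 of Burkitt lymphoma (BL). The labels name no treatment. The series was made around the chemokine receptor CXCR4 as a target of radioligands in MCL. Of the 34 lines, 30 were marked as re-analysed from earlier data, and Daudi, HBL-2, MAVER-1 and UPN1 carried no such mark. A pathology is represented here by single libraries of different lines, so the spread within a group is that between lines, and the cultures lack the stroma and T cells of a tumour.

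A microRNA host gene is transcribed as a long primary RNA from which the Drosha and Dicer enzymes cut hairpins of short regulatory RNAs. The mature microRNA pairs through its seed with messenger RNAs and lowers their output. MIR155HG, first known as BIC, is induced by NF-kB and B-cell receptor signalling and is typically high in activated B cells and ABC DLBCL. MIR17HG carries the miR-17-92 cluster, a MYC target that is amplified in some B-cell lymphomas. DLEU2 carries miR-15a and miR-16-1, and with its neighbour DLEU1 lies in the 13q14 region that is deleted in chronic lymphocytic leukaemia and in part of MCL. MALAT1 and NEAT1 are neighbouring nuclear RNAs on chromosome 11, of which MALAT1 gathers at splicing speckles and NEAT1 forms the scaffold of paraspeckles. GAS5 and SNHG1 carry box C/D small nucleolar RNAs (snoRNAs) in their introns. Their spliced RNAs contain a 5' terminal oligopyrimidine tract or are cleared by nonsense-mediated decay, so their levels respond to translation and growth.

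The mature microRNAs are printed here to show which of them share a seed, the part that chooses the targets. The sequences are from RefSeq (GRCh38.p14), written 5' to 3', with the seed, bases 2 to 8, in capitals. All 9 lie inside the span of their host gene, and they hold 6 different seeds.
miR-155-5p of MIR155HG: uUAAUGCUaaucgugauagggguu
miR-17-5p of MIR17HG: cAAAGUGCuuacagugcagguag
miR-20a-5p of MIR17HG: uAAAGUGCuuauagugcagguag
miR-18a-5p of MIR17HG: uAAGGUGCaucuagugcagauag
miR-19a-3p of MIR17HG: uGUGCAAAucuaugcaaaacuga
miR-19b-3p of MIR17HG: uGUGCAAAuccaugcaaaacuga
miR-92a-3p of MIR17HG: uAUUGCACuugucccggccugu
miR-15a-5p of DLEU2: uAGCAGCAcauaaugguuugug
miR-16-5p of DLEU2: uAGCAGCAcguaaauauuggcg

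The 6 microRNAs of MIR17HG fall into 4 seed groups, with miR-17-5p and miR-20a-5p in one and miR-19a-3p and miR-19b-3p in another. The 2 microRNAs of DLEU2 share a single seed, and the seed of miR-155-5p is held by no other of the 9. The libraries counted genes and not mature microRNAs. Of the 9 microRNA genes, 1 was in the table and none had enough reads to be tested, so the values below are those of the host transcripts.

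All values are variance-stabilised read counts in log2 units, where 0 reads correspond to 4.55. A level in CPM, the reads of a gene relative to the library total, comes from reads recovered by inverting that transform. The libraries fell into 2 classes by ZNF593, a zinc finger gene with 444 to 6561 reads in 25 libraries (first class) and 0 reads in 9 (second class). Of the 14 GCB DLBCL lines 8 were of the second class, of the 6 ABC DLBCL lines NU-DUL-1 alone was, and every MCL and BL line was of the first. Depth was 22.6 to 165 M (mega) reads in the first class and 2.55 to 22.7 M in the second. A single read was worth 4.70 to 4.89 in the first class and 4.91 to 5.63 in the second, so low values of the second class are coarse. The MCL libraries had 60.1 to 109 M reads and the BL libraries 22.6 to 92.4 M. The B-cell markers CD79A, CD79B, MS4A1, PAX5 and CD22 were over 1 CPM in 34 of 34 lines. The myeloid markers CD14 and CD68 and the endothelial VWF were over 1 CPM in no line. SP-49 and SP-53 were nearly alike, with a Pearson r of 0.979 over genes against 0.953 for the next pair of lines.

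**Figure D1:**
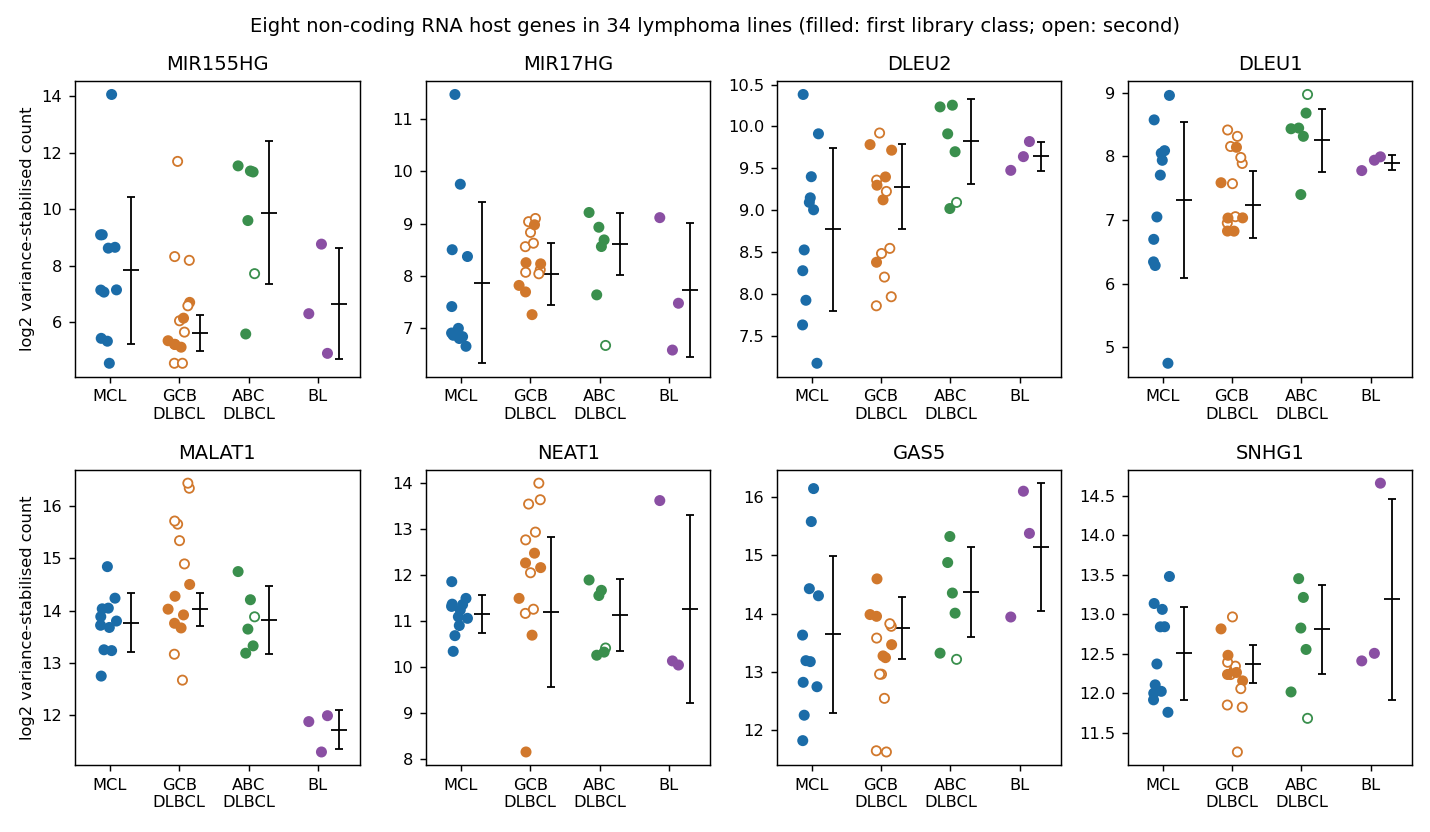
Each panel plots 1 gene, with the variance-stabilised count in log2 units on the vertical axis and the 4 pathologies on the horizontal axis. Points are lines, filled for the first library class and open for the second, and bars are the mean and SD of the first-class lines. MALAT1 lies at 11.29 to 11.99 in the 3 BL lines, below all 31 other lines, while the groups overlap for the other 7 genes.

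Pathologies were compared in pairs with limma over all 34 lines, with the library class as a term and Benjamini-Hochberg adjustment over 22167 genes. Of 48 differences, 8 genes in 6 contrasts, 1 passed the adjusted p threshold of 0.05: MALAT1 was lower in BL than in MCL. Adjusted p-values of the rest were 0.14 to 1. At an unadjusted p under 0.05 there were 8: DLEU1 and DLEU2 for MCL minus ABC DLBCL, MIR155HG and DLEU1 for ABC minus GCB DLBCL, MALAT1 and GAS5 for BL minus MCL, and MALAT1 for BL against each DLBCL type, with 0 for MCL minus GCB DLBCL. Over all genes, 6.39 to 14.9% were at an unadjusted p under 0.05 in these contrasts. The share of all genes called was 2.35% for MCL minus GCB DLBCL, 0.695% for MCL minus ABC DLBCL, 0.117% for ABC minus GCB DLBCL, 1.34% for BL minus MCL, 0.0496% for BL minus GCB DLBCL and 0.117% for BL minus ABC DLBCL. Few genes passed in most contrasts, so a member that did not pass is not shown to be equal. The 3 BL contrasts share the same 3 lines and are not independent of each other.

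MIR155HG (ENSG00000234883, chromosome 21, 25562145 to 25575168, GRCh38.p14, a long non-coding RNA gene) varied most of the 8 genes. Its SD over the 25 first-class lines was 2.54, larger than that of 98.7% of tested genes, against a median SD of 0.592. It was highest in the MCL line JVM2, at 14.05 (18192 reads, 277 CPM). The next levels were 11.69 in DOHH-2 (GCB DLBCL, 366 reads), 11.53 in OCI-Ly10, 11.35 in HBL-1 and 11.31 in OCI-Ly3, the last 3 being ABC DLBCL lines. No read was found in REC-1, OCI-Ly1 or OCI-Ly7, which allows up to 0.0335, 0.62 and 0.917 CPM at their depths by the limit of 3 reads, counting error alone. High lines were therefore found in MCL, in GCB DLBCL and in ABC DLBCL, and lines at or near 0 reads in MCL, GCB DLBCL and BL. In such bulk libraries, expression in fewer cells and less RNA per cell cannot be told apart.

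In the 5 first-class ABC DLBCL lines MIR155HG was 5.59 in SU-DHL-8, 9.60 in MD903, 11.31 in OCI-Ly3, 11.35 in HBL-1 and 11.53 in OCI-Ly10. The 6 first-class GCB DLBCL lines ran from 5.12 in HT to 6.70 in SU-DHL-5, with a median of 5.29. So 4 of 5 ABC DLBCL lines of the first class lay above its highest GCB DLBCL line, and SU-DHL-8 lay within the GCB DLBCL range. Median levels were 58.3 CPM in the first-class ABC DLBCL lines and 0.154 CPM in the first-class GCB DLBCL lines. NU-DUL-1, the second-class ABC DLBCL line, was at 7.72, and the 8 second-class GCB DLBCL lines had a median of 6.32 and reached 11.69. These 8 rest on few reads: 0 in OCI-Ly1 and OCI-Ly7, 2 in Karpas422, 4 in DB and 5 in WSU-DLCL2. NU-DHL-1 had 18, SU-DHL-6 27 and DOHH-2 366. A single read was worth up to 5.63 in this class, above the first-class GCB DLBCL median, so the 2 medians are not comparable. The fitted difference, ABC minus GCB DLBCL, was 3.39 ± 1.14 (SE) and did not pass over all genes (limma adjusted p = 0.25). It was 4.25 ± 1.30 within the first class, where it did not pass either (limma adjusted p = 0.20).

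The 11 MCL lines covered nearly the whole range of MIR155HG. The lowest was REC-1 with 0 reads, the median was 7.15 and the highest was JVM2. Z-138 and UPN1 had 19 and 21 reads, and GRANTA519 and SP-49 both stood at 9.09. The MCL mean was 7.83 ± 2.60 (SD, n = 11), 1.82 ± 1.06 above GCB DLBCL (SE, limma adjusted p = 0.45) while MCL minus ABC DLBCL was -1.57 ± 1.11 (SE, limma adjusted p = 0.70). Without JVM2 the difference to GCB DLBCL was 1.20, and MCL minus ABC DLBCL was -2.37 without SU-DHL-8. In BL, MIR155HG was 8.76 in Raji (814 reads), 6.31 in Daudi (30 reads) and 4.90 in Ramos (2 reads), and BL minus ABC DLBCL was -2.75 ± 1.54 (SE, limma adjusted p = 0.61). First-class means fell in the order ABC DLBCL (9.87 ± 2.52, SD, n = 5), MCL, BL (6.66 ± 1.95, SD, n = 3) and GCB DLBCL (5.63 ± 0.65, SD, n = 6), and every pair of neighbours in that order overlapped.

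**Figure D2:**
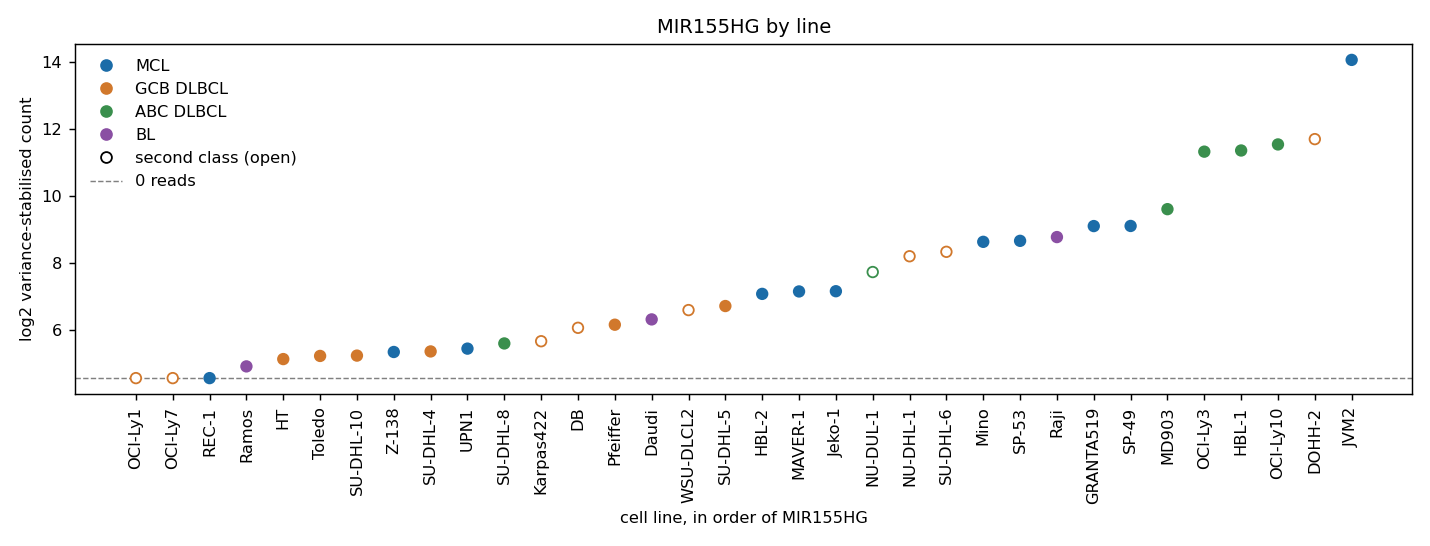
The 34 lines are placed on the horizontal axis in order of MIR155HG, with its variance-stabilised count in log2 units on the vertical axis. Colours are pathologies, open points are second-class libraries, and the dashed line marks 0 reads. JVM2 stands apart at 14.05, and 4 ABC DLBCL lines and DOHH-2 lie between 9.60 and 11.69.

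The genes whose levels were most like MIR155HG over the 25 first-class lines, among 9326 genes with a mean of at least 8, were NFKBIE (Pearson r = 0.81), which encodes an inhibitor of NF-kB, EBI3 (r = 0.80), a cytokine subunit, and CFLAR (r = 0.80), an inhibitor of death receptor signalling. Against the 7 other non-coding genes its r was between -0.237 and 0.102, and none of these 7 relations passed.

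A list of 20 published miR-155 targets was read beside it. For ABC minus GCB DLBCL, where MIR155HG was 3.39 apart, 0 of 20 targets passed by limma (6 at an unadjusted p under 0.05, against 9.03% of all genes), with a median difference of -0.10 against -0.02 over all genes. Within the first class 2 of 20 were lower and none higher, where 0.122% of all genes were lower. They were the zinc finger gene ZNF652, at -2.04 (limma adjusted p = 0.036), and SMAD5, a transducer of BMP signals, at -1.39 (limma adjusted p = 0.044). For MCL minus GCB DLBCL, 3 of 20 were lower and none higher, where 0.609% of all genes were lower, and the median difference was -0.09 against -0.01 over all genes. These were the homeobox gene MEIS1 (-2.36 ± 0.56), the cytokine signalling inhibitor SOCS1 (-2.25 ± 0.61) and ZNF652 (-1.48 ± 0.33). SOCS1 was also lower in the second library class, by -2.62, and its MCL minus GCB DLBCL difference within the first class was -2.42 (limma adjusted p = 0.058). MEIS1 and ZNF652 passed there as well, where 1.27% of all genes were lower. A target's level is set by many inputs, and no mature microRNA was measured.

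MIR17HG (ENSG00000215417, chromosome 13, 91347687 to 91354577) was highest in 2 MCL lines, HBL-2 and REC-1, and low in most others of that pathology. HBL-2 stood at 11.47 (9630 reads, 93.5 CPM) and REC-1 at 9.75 (1699 reads, 19.0 CPM). The other 9 MCL lines lay between 6.66 in SP-53 and 8.50 in UPN1, and the MCL median was 2.13 CPM. No other line of the series exceeded the 9.21 of OCI-Ly10. GCB DLBCL lines were closer together, from 7.26 in HT to 9.10 in Karpas422 with a median of 8.24. In ABC DLBCL the lowest, median and highest were 6.67 in NU-DUL-1, 8.63 and 9.21 in OCI-Ly10.

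The 3 BL lines of MIR17HG were 6.59 in Raji, the lowest of all 34, 7.48 in Ramos and 9.11 in Daudi. The cluster is a known target of MYC, which is translocated in BL, and these lines covered most of the range outside HBL-2. First-class means were 8.61 ± 0.59 in ABC DLBCL (SD, n = 5), 8.04 ± 0.59 in GCB DLBCL (SD, n = 6), 7.87 ± 1.54 in MCL (SD, n = 11) and 7.73 ± 1.28 in BL (SD, n = 3), with overlap between all neighbours. The MCL minus GCB DLBCL difference was -0.44 ± 0.53 (SE, limma adjusted p = 0.80), -0.80 without HBL-2 and -0.17 without NU-DUL-1. MIR17HG was most like FLVCR1, a haem and choline transporter (r = 0.75), ARFGAP2, of Golgi transport (r = 0.74), and ZNF678 (r = 0.73).

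Of 17 published targets of the miR-17-92 cluster, 2 were lower and none higher in MCL than in GCB DLBCL, where 0.609% of all genes were lower. BCL2L11, the gene of the death-promoting protein BIM, differed by -4.93 ± 0.93 (limma adjusted p = 0.0029), and PHLPP2, a phosphatase of AKT, by -1.19 ± 0.27 (limma adjusted p = 0.011). BCL2L11 was also lower in MCL than in ABC DLBCL, by -4.83 ± 0.98 (limma adjusted p = 0.010, and 0.053 within the first class), where 0.212% of all genes were lower. MIR17HG itself passed in neither contrast, and its differences, -0.44 and -0.41, had the same sign as those of BCL2L11. The levels of BCL2L11 in single MCL lines were not examined here. The median over the 17 targets was 0.05 for MCL minus GCB DLBCL, against -0.01 over all genes, and -0.38 for MCL minus ABC DLBCL, against 0.02.

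A list of 21 tested microRNA host genes, the 3 hosts above included, held none that passed by limma in any of the 6 pathology contrasts, with 1 to 5 of 21 a contrast at an unadjusted p under 0.05 (6.39 to 14.9% over all genes). In 3 of these contrasts, those with BL, its median difference was -0.52 to -0.55, against -0.04 to -0.07 over all genes. Among 11 genes of microRNA processing, AGO2, the slicing Argonaute, was lower in MCL than in GCB DLBCL by -1.08 ± 0.30 (SE, limma adjusted p = 0.049), where 0.609% of all genes were lower. Within the first class the AGO2 difference was -1.17 (limma adjusted p = 0.054). AGO2 was also higher in the second library class, by 1.09 (limma adjusted p = 0.0065).

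DLEU2 (ENSG00000231607) and DLEU1 (ENSG00000176124) lie on opposite strands of chromosome 13, at 49982549 to 50125541 and 50082169 to 50528643, and their spans overlap by 43.4 kb. Both were lowest in the MCL line SP-53. DLEU1 had 1 read there and stood at 4.75, and DLEU2 had 225 reads and stood at 7.18. The closely similar line SP-49 had 115 reads of DLEU1 (6.29) and 975 of DLEU2 (8.53), and the MCL line GRANTA519 had 6.34 and 7.63. At the other end, UPN1 had the highest DLEU2 of the series (10.38) and Jeko-1, at 8.95, the second highest DLEU1 after NU-DUL-1 (8.97). Low and high extremes of both genes were therefore both found among MCL lines.

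DLEU1 in MCL ran from 4.75 in SP-53 over a median of 7.70 to 8.95 in Jeko-1, with a mean of 7.31 ± 1.22 (SD, n = 11). First-class means were 8.25 ± 0.50 in ABC DLBCL (SD, n = 5), 7.90 ± 0.11 in BL (SD, n = 3) and 7.24 ± 0.52 in GCB DLBCL (SD, n = 6). In the first class, 4 of 5 ABC DLBCL lines lay above the highest GCB DLBCL line, and MD903, at 7.40, did not. The fitted ABC minus GCB DLBCL difference was 1.05 ± 0.43 (SE, limma adjusted p = 0.40) and MCL minus ABC DLBCL -0.96 ± 0.42 (SE, limma adjusted p = 0.37). Neither passed, and without SP-53 the second was -0.71.

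DLEU2 in MCL had its median at 9.01 and a mean of 8.77 ± 0.97 (SD, n = 11). First-class means of DLEU2 were 9.82 ± 0.50 in ABC DLBCL (SD, n = 5), 9.65 ± 0.17 in BL (SD, n = 3) and 9.28 ± 0.51 in GCB DLBCL (SD, n = 6). MCL minus ABC DLBCL was -1.03 ± 0.38 (SE, limma adjusted p = 0.24), and -0.87 without SP-53. Of the 11 MCL lines, 6 lay below the lowest ABC DLBCL line. For both genes every neighbouring pair of pathologies overlapped.

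The promoter window of DLEU1 is shown because these 2 genes moved together and start close to each other. RefSeq places the start of DLEU1 at 50082169 and a start of DLEU2, on the other strand, at 50082041, which is 128 bases away. Another start of DLEU2 lies at 50125541. The window chr13:50081919-50082218 (GRCh38.p14, plus strand) is printed with the stretch from one start to the other in capitals.
DLEU1 promoter: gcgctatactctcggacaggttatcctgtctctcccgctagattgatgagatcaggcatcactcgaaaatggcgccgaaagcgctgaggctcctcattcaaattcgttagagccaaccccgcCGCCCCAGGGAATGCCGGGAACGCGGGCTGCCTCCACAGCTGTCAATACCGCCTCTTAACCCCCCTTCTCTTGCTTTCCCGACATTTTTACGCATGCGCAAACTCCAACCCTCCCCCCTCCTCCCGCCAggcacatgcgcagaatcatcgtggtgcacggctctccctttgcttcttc

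It holds 21 CG dinucleotides and is 57.7% G or C. Of 35116 RefSeq promoter windows of this length, 39.5% hold at least as many CG, and the median window holds 14, so the window is not unusual in this respect.

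DLEU1 and DLEU2 were the most closely related of the 28 pairs of the 8 genes. Over the 25 first-class lines Pearson's r was 0.85 and Spearman's rho 0.78 (permutation p = 1e-05 for r, the smallest that 100000 resamples can give, adjusted p = 0.00028 over 28 pairs). Without SP-49 and SP-53, the lines farthest from the median of DLEU1, r was 0.78. Taken within pathologies, as residuals from the pathology means, r was 0.86 (permutation adjusted p = 0.00028). It was 0.91 in the 11 MCL lines and 0.71 in the 9 second-class lines. Whether reads were counted by strand is not given in the sources used here, so reads from the shared 43.4 kb cannot be assigned to one gene with certainty, and its part in this relation was not tested. The genes most like DLEU1 were DLEU2, MRPS5 (r = 0.73) and the pseudogene RPL5P34 (r = 0.71). DLEU2 was most like RPL5P34 (r = 0.69), SOD2 (r = 0.65) and DCAF16 (r = 0.63), in a ranking from which DLEU1 was left out by its mean under 8.

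Of 16 other genes of the 13q14 neighbourhood, the tumour suppressor RB1, TRIM13 and KPNA3 among them, none passed by limma in any pathology contrast, with 0 to 3 of 16 a contrast at an unadjusted p under 0.05 (6.39 to 14.9% over all genes). Their median difference was -0.08 for MCL minus GCB DLBCL and 0.10 for MCL minus ABC DLBCL, against -0.01 and 0.02 over all genes.

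**Figure D3:**
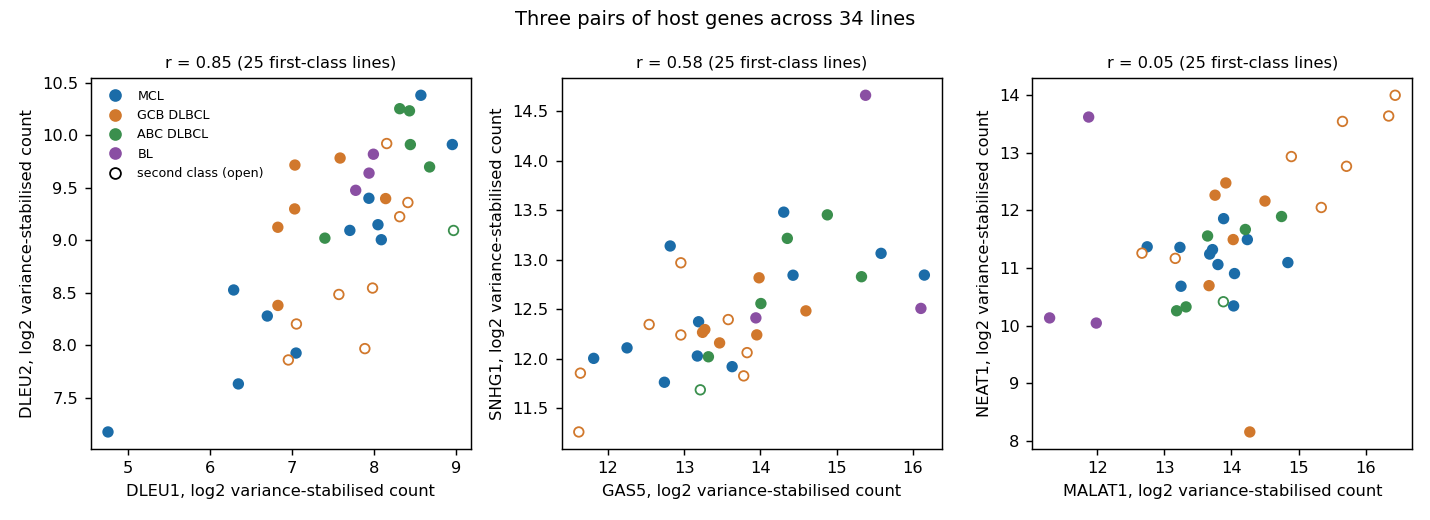
Each point is a line, with the variance-stabilised counts of 2 genes in log2 units on the axes, coloured by pathology and open for second-class libraries. DLEU1 and DLEU2 rise together (r = 0.85 over the 25 first-class lines), GAS5 and SNHG1 less closely (r = 0.58), and for MALAT1 and NEAT1 r is 0.05 in the filled points and 0.87 in the 9 open points.

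MALAT1 (ENSG00000251562, chromosome 11, 65497738 to 65506516) was low in all 3 BL lines. It stood at 11.29 in Raji, 11.87 in Daudi and 11.99 in Ramos, from 5148, 2840 and 5773 reads. Each of the 31 other lines was higher, the lowest being OCI-Ly7 at 12.67 and, in the first class, UPN1 at 12.74. Such complete separation of BL below all others was found for 9 of 22167 genes (0.0406%), and below the 22 other first-class lines for 37 genes (0.167%). Median levels were 97.8 CPM in BL and 380 CPM in first-class lines outside BL.

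The MALAT1 mean was 11.72 ± 0.37 in BL (SD, n = 3), 13.77 ± 0.56 in MCL (SD, n = 11), 13.82 ± 0.65 in first-class ABC DLBCL (SD, n = 5) and 14.02 ± 0.32 in first-class GCB DLBCL (SD, n = 6). The last 3 groups overlapped. MALAT1 was lower in BL than in MCL by -2.05 ± 0.52 (SE, limma adjusted p = 0.041), where 0.907% of genes were lower. BL minus GCB DLBCL was -2.41 ± 0.56 (SE, limma adjusted p = 0.14) and BL minus ABC DLBCL -1.98 ± 0.57 (SE, limma adjusted p = 0.16), and neither passed over all 34 lines. Within the first class all 3 passed, at -2.05 ± 0.33 (limma adjusted p = 0.0019), -2.31 ± 0.36 (limma adjusted p = 0.0068) and -2.10 ± 0.37 (limma adjusted p = 0.0087), in contrasts where 0.911%, 0.0722% and 0.262% of genes were lower.

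The BL minus MCL call lay close to the threshold. It was lost under 6 of 7 other ways of processing (adjusted p = 0.051 to 0.16 by limma), at differences of -2.31 to -1.63. Centring each library on its median gene raised every BL minus MCL difference by 0.424, and MALAT1 was then at -1.63. It was also lost when any one of Daudi, Raji, Ramos, GRANTA519, Z-138, Jeko-1, MAVER-1, Mino, SP-49 and SP-53 was left out. The differences without 1 line were -2.19 to -1.84, so the direction held throughout while the call did not. MALAT1 was most like ZFYVE1 (r = 0.79), the lysosomal protease gene CTSB (r = 0.79) and BCORL1 (r = 0.73) over the first-class lines. Of 14 tested neighbours of MALAT1 and NEAT1, none passed by limma in a BL contrast (0 to 4 of 14 a contrast at an unadjusted p under 0.05 over all pathology contrasts, against 6.39 to 14.9% of all genes), and their median was -0.39 for BL minus MCL, against -0.05 over all genes.

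**Figure D4:**
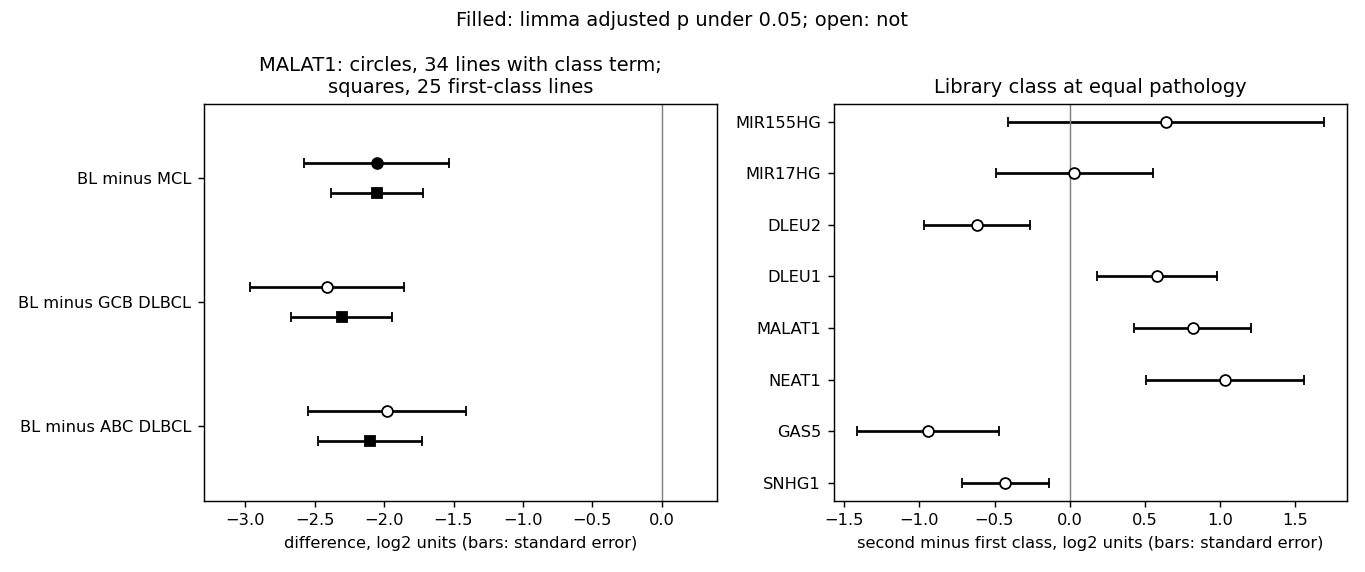
The left panel plots the MALAT1 differences of BL to the 3 other pathologies, in log2 units with standard errors, from all 34 lines with the class term (circles) and from the 25 first-class lines (squares). The right panel plots the second minus first class difference of all 8 genes, and filled symbols mark a limma adjusted p under 0.05. All MALAT1 differences lie between -2.41 and -1.98, and no library class difference passes.

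NEAT1 (ENSG00000245532, chromosome 11, 65422798 to 65445540, which ends 52.2 kb before MALAT1 begins) did not follow MALAT1 in BL. Raji and Ramos were low, at 10.13 and 10.04, while Daudi, at 13.61, was the highest first-class line. MCL lines were close together, from 10.34 in SP-49 over a median of 11.24 to 11.85 in MAVER-1. The 6 first-class GCB DLBCL lines ran from 8.16 in Toledo, the lowest of the series, to 12.47 in Pfeiffer. The highest levels were 13.99 in WSU-DLCL2 and 13.63 in NU-DHL-1, both second-class GCB DLBCL lines.

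First-class NEAT1 means lay close together, with 11.26 ± 2.04 in BL (SD, n = 3), 11.2 ± 1.63 in GCB DLBCL (SD, n = 6), 11.15 ± 0.41 in MCL (SD, n = 11) and an ABC DLBCL mean of 11.14 ± 0.78 (SD, n = 5). Neighbours in this order overlapped. No pathology contrast passed (adjusted p = 0.87 to 1 by limma), and MCL minus GCB DLBCL was -0.30 ± 0.53 (SE) over all lines, -0.87 without Toledo and -0.051 without NU-DUL-1. Among 13 paraspeckle protein genes, NONO, SFPQ and PSPC1 included, none passed by limma in a pathology contrast either, with 0 to 2 of 13 a contrast at an unadjusted p under 0.05 (6.39 to 14.9% over all genes). The genes most like NEAT1 were CES2 (r = 0.66), SEC31B (r = 0.63) and AKAP13 (r = 0.63).

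The relation of MALAT1 and NEAT1 had unlike values in the 2 library classes. Over the 25 first-class lines r was 0.05 and rho 0.25 (permutation adjusted p = 0.95 for r), and r was 0.24 without Daudi and Raji. Over the 9 second-class lines r was 0.87 and rho 0.85, and r was 0.90 after the 2 lines farthest from the median of MALAT1 were left out. These 9 values were taken after the first-class result was known and carry no test, nor was the difference between the classes tested. Pooling all 34 lines gave r = 0.51 (permutation adjusted p = 0.015), which mixes the classes.

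GAS5 (ENSG00000234741, chromosome 1, 173863901 to 173869045) was high in 2 BL lines and in single lines of other pathologies. Raji stood at 16.10, Ramos at 15.38 and Daudi at 13.94. JVM2 (16.15) and REC-1 (15.58) in MCL, and MD903 (15.32) in ABC DLBCL, reached similar levels. The lowest were Karpas422 (11.62) and OCI-Ly1 (11.64) in GCB DLBCL and MAVER-1 (11.81) in MCL. The median level was 1037 CPM in BL, 313 CPM in MCL and 329 CPM in first-class GCB DLBCL.

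First-class GAS5 means were 15.14 ± 1.10 in BL (SD, n = 3), 14.38 ± 0.78 in ABC DLBCL (SD, n = 5), 13.75 ± 0.53 in GCB DLBCL (SD, n = 6) and 13.64 ± 1.35 in MCL (SD, n = 11), and neighbours overlapped. BL minus MCL was 1.50 ± 0.63 (SE, limma adjusted p = 0.30) and BL minus GCB DLBCL 1.36 ± 0.68 (SE, limma adjusted p = 0.78). Without Raji these were 1.02 and 0.88. All 3 BL lines lay above the median of either group, but neither difference passed. GAS5 was most like ZFAS1 (r = 0.85), the mitochondrial ribosomal gene MRPL18 (r = 0.82) and RP11-864N7.2 (r = 0.81).

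SNHG1 (ENSG00000255717, chromosome 11, 62851978 to 62855885) had 1 line apart, the BL line Ramos at 14.66 (37244 reads). The other BL lines, Raji at 12.51 and Daudi at 12.41, lay in the middle of the series. Jeko-1 (13.48) in MCL and SU-DHL-8 (13.45) in ABC DLBCL came next, and Karpas422 (11.26) was lowest. The MCL median was 12.37, with SP-53 lowest at 11.76. SNHG1 varied least of the 8 genes, with an SD of 0.643 over the first-class lines.

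First-class SNHG1 means were 13.19 ± 1.27 in BL (SD, n = 3), 12.81 ± 0.56 in ABC DLBCL (SD, n = 5), 12.51 ± 0.59 in MCL (SD, n = 11) and 12.38 ± 0.24 in GCB DLBCL (SD, n = 6), and neighbours overlapped. BL minus MCL was 0.69 ± 0.39 (SE, limma adjusted p = 0.51) and BL minus GCB DLBCL 0.72 ± 0.41 (SE, limma adjusted p = 0.85). Without Ramos these were -0.046 and -0.014, so the positive sign rested on that line. SNHG1 was most like DUSP28 (r = 0.73), ZNF639 (r = 0.72) and YEATS4 (r = 0.70).

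GAS5 and SNHG1 rose together across the first-class lines, with r = 0.58 and rho = 0.69 (permutation adjusted p = 0.029 and 0.0024 over 28 pairs). Without JVM2 and Raji r was 0.68. As residuals from the pathology means r was 0.49 (permutation adjusted p = 0.089), and r was 0.45 on the log2(CPM + 1) scale (permutation adjusted p = 0.14). The call was lost in both of these. In the 9 second-class lines r was 0.35, and -0.44 without the 2 lines farthest from the median of GAS5, with no test. SNHG1 was also related to DLEU1 (r = 0.57) and to DLEU2 (r = 0.56), each with a permutation adjusted p of 0.033. Both calls were lost on residuals (permutation adjusted p = 0.066) and on the log2(CPM + 1) scale (permutation adjusted p = 0.072). Over all 34 lines, which mixes the classes, that with DLEU1 was lost (r = 0.32, permutation adjusted p = 0.22). That with DLEU2 passed there (r = 0.50, permutation adjusted p = 0.015). In the second class r was -0.34 and -0.046. In all, 4 of 28 pairs passed, and 1 on residuals, that of DLEU1 and DLEU2.

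Among 28 snoRNA host genes, GAS5 and SNHG1 included, SNHG12 alone passed in a pathology contrast, with 0 to 6 of 28 a contrast at an unadjusted p under 0.05 (6.39 to 14.9% over all genes). It was lower in MCL than in GCB DLBCL by -1.55 ± 0.31 (SE, limma adjusted p = 0.0047) and than in ABC DLBCL by -1.46 ± 0.32 (SE, limma adjusted p = 0.022), where 0.609% and 0.212% of all genes were lower. It passed both within the first class, at -1.41 and -1.62, where 1.27% and 0.356% were lower. The median over the list was -0.30 and -0.49 in these contrasts and 0.67 for BL minus MCL, against -0.05 over all genes in the last. The snoRNAs themselves were hardly covered: 0 of 10 snoRNA genes of GAS5 were in the table, and 2 of 8 of SNHG1, neither with enough reads. Among 11 other long non-coding RNAs, such as NORAD, TUG1 and OIP5-AS1, none passed by limma in a pathology contrast, and 1 had an unadjusted p under 0.05 in one of them (6.39 to 14.9% over all genes).

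The library class was estimated for each gene at equal pathology, second minus first. None of the 8 genes passed by limma (1 had an unadjusted p under 0.05, MALAT1), while 25.4% of all genes did (16.2% higher, 9.23% lower). NEAT1 was 1.03 ± 0.52 higher (SE, limma adjusted p = 0.16) and MALAT1 0.82 ± 0.39 higher (SE, limma adjusted p = 0.13). GAS5 differed by -0.94 ± 0.47 (SE, limma adjusted p = 0.15), DLEU2 by -0.62 ± 0.35 (0.22) and SNHG1 by -0.43 ± 0.29 (0.30). DLEU1 (0.58 ± 0.40), MIR155HG (0.64 ± 1.05) and MIR17HG (0.03 ± 0.52) had adjusted p-values of 0.32 to 0.98 by limma. Without Toledo the NEAT1 difference was 0.51, and without DOHH-2 that of MIR155HG was 0.072. Without NU-DUL-1 MIR155HG differed by 1.32 and SNHG1 by -0.26. On the log2(CPM + 1) scale MALAT1 (1.16) and NEAT1 (1.38) passed, and after quantile normalization MALAT1 did (1.19).

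Within GCB DLBCL, 8 second-class lines could be set against 6 of the first class. MALAT1 was 15.03 ± 1.40 (SD, n = 8) against 14.02 ± 0.32 (SD, n = 6), and its second-class lines split into OCI-Ly7 (12.67) and OCI-Ly1 (13.16) on one side and 6 lines between 14.89 and 16.44 on the other. NEAT1 was 12.67 ± 1.08 (SD, n = 8) in the second class, and OCI-Ly1 and OCI-Ly7 were again the lowest, at 11.16 and 11.26. GAS5 was 12.86 ± 0.88 (SD, n = 8) against 13.75 ± 0.53 (SD, n = 6). In two-sided exact permutation tests GAS5 gave p = 0.047 and NEAT1 p = 0.062, each with an adjusted p of 0.167 over the 8 genes, and the classes overlapped for all 8. Among all genes, 3.2% lay wholly above and 3.16% wholly below in the second class.

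The lists of related genes were counted in the same way, beside the 16.2% of all genes that were higher and the 9.23% that were lower in the second class. Of 28 snoRNA hosts, 11 were lower and none higher in the second class, led by SNHG6 (-2.58), SNHG9 (-2.46), SNHG25 (-2.20) and SNHG19 (-1.64), and the median of the list was -0.84 against 0.07 over all genes. Of 11 other long non-coding RNAs, 4 were higher and none lower, namely KCNQ1OT1 (2.55), PSMA3-AS1 (1.24), HCG18 (1.01) and OIP5-AS1 (0.83). Of 21 microRNA hosts, MIR142HG was lower (-1.63) and MIR600HG (1.59), MIR181A2HG (1.22) and MIR181A1HG (1.04) were higher. Among 11 microRNA processing genes 6 were higher and 1 lower, with DICER1 (1.48), AGO3 (1.35), AGO4 (1.25) and AGO1 (1.17) moving most. Of 13 paraspeckle protein genes 4 were lower and none higher, TAF15 (-0.76) among them. The neighbours of MALAT1 and NEAT1 had 1 of 14 higher and 4 lower, led by ZNRD2 (-1.37), and those of DLEU1 and DLEU2 had 2 of 16 higher and 1 lower, led by FNDC3A (1.19). Of 9 tested transcripts that mostly lack a poly(A) tail, 1 was higher, the histone gene H4C3 (1.61), and 2 were lower. The miR-155 targets had 1 of 20 higher and 2 lower, and the miR-17-92 targets none of 17 (2 at an unadjusted p under 0.05 by limma, against 35.3% of all genes). The shares of the microRNA hosts, the 13q14 neighbours and both target lists were below the 25.4% of all genes called. What differed in the making of the libraries is not stated in the labels. NU-DUL-1, with 22.7 M reads, was close in depth to the first-class Daudi (22.6 M), with 0 against 444 reads of ZNF593. The second-class GCB DLBCL lines had 2.55 to 4.84 M reads, so for them class and depth cannot be told apart.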

How the data were processed

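RNA sequencing of 34 lymphoma cell lines was used as a single table of genes by lines. The authors deposited variance-stabilised counts in log2 units, and per the submitters' processing notes the build was GRCh38 and the tools were DESeq2 1.26.0, STAR 2.5.3a and R 3.6.1, whose roles are not stated. The read counter, annotation and strand setting are not given in the sources used here. Reads of MALAT1 and GAS5 therefore cannot be told from those of their antisense genes. Inverting the transform from the lowest value, 4.55, gave whole reads within 0.05 for 100% of values. CPM uses their library totals. Differences near the lowest value are compressed.

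Genes with at least 3 lines more than 1 log2 unit above the lowest value were kept (22167 genes). Pathology means and a library class term (ZNF593 at or above 4.56 is the first class) were fitted with limma 3.58.1 in R 4.3.3, with a trended prior and 7 contrasts, checked on simulated data, at a Benjamini-Hochberg adjusted p of 0.05. Permutation tests were two-sided, exact within GCB DLBCL and with 100000 resamples for the 28 pairs, in Python 3.11.15 with NumPy 2.4.6 and SciPy 1.17.1. Lines were the replicates, so p-values measure the spread between lines, each seen once. SP-49 and SP-53, nearly alike over genes (r = 0.979), were counted as separate lines, so MCL holds less independent spread than its number of lines.

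Alternatives were no class term, the first class only, re-analysed lines only, no filter, median centring, quantile normalization, log2(CPM + 1) and leaving out each line. The text names the 8 genes, the members of a list that passed in a contrast (up to the 4 with the largest difference), ZNF593 and the 3 genes most like each of the 8. The 8 genes and the lists were chosen with earlier results of these data known. Gene positions and sequences are from RefSeq on GRCh38.p14.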

Additional observations from a re-analysis of the deposited data

Results flagged for a closer look

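One line stood apart in a small group. In the 5 first-class ABC DLBCL lines DLEU1 was 7.40 in MD903, while the other 4 lines lay between 8.31 in HBL-1 and 8.68, and the gap made up 0.715 of the range. It came from 32 such checks of a gene in a group, and chance alone gives about 1 in 20. DLEU2 was also lowest in MD903 among these lines, at 9.02.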

How the results depend on the processing

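All 8 genes passed the filter on low values, so the filter changed only what the adjustment was made over. Differences and relations of the 8 genes that passed in the main run kept their direction under every alternative, with exceptions in the second library class. There r of SNHG1 with DLEU1 and with DLEU2 was -0.34 and -0.046. That of GAS5 with SNHG1 was -0.44 there once 2 lines were left out. The second-class values were chosen after seeing the data. In the second class 1 read was worth 4.91 to 5.63, so no level below that is resolved there. No paired analysis was possible because each line was sequenced once and belongs to a single pathology.

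The number of the 8 genes called for BL minus MCL, 1 (MALAT1), was 0 with no class term, with re-analysed lines only, with no filter, after median centring, after quantile normalization and on the log2(CPM + 1) scale, and 0 to 1 when each line was left out. For BL minus GCB DLBCL it was 0, and 1 with no class term and in the first class, and 0 to 1 without each line (1 without OCI-Ly7). For BL minus ABC DLBCL it was 0, and 1 in the first class. For the library class it was 0, and 1 after quantile normalization, 2 on the log2(CPM + 1) scale and 0 to 1 without each line (1 without OCI-Ly1 or OCI-Ly7). The cause was not tested.

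MCL minus GCB DLBCL called 522 genes in all, 5245 with no class term, and 269 to 868 without each line. MCL minus ABC DLBCL called 154, with 262 after median centring and 71 to 255 without each line. ABC minus GCB DLBCL called 26, with 161 with no class term, 50 in the first class, 9 in re-analysed lines, 42 after quantile normalization and 1 to 124 without each line. BL minus MCL called 297, with 39 in re-analysed lines, 465 after median centring, 194 on the log2(CPM + 1) scale and 52 to 426 without each line. BL minus GCB DLBCL called 11, with 34 with no class term, 38 in the first class, 18 after quantile normalization, 17 on the log2(CPM + 1) scale and 10 to 25 without each line. BL minus ABC DLBCL called 26, with 119 in the first class, 51 after quantile normalization and 11 to 86 without each line.

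Among differences that did not pass, the library class difference of MIR17HG was -0.12 after median centring and -0.13 to 0.51 without each line, and that of SNHG1 within GCB DLBCL was 0.078 on the log2(CPM + 1) scale. For SNHG1, BL minus MCL was -0.046 to 1.08 and BL minus GCB DLBCL -0.014 to 1.11 without each line, lowest without Ramos. Median centring shifted every difference of MCL minus GCB DLBCL by -0.232, MCL minus ABC DLBCL by -0.24 and the library class by -0.147. For MALAT1 and NEAT1 r was -0.092 in the MCL lines and -0.023 with each library centred on its median. The number of pairs called, 4, was 1 on residuals from the pathology means and 2 on the log2(CPM + 1) scale. Of the latter, DLEU1 with DLEU2 was among the 4. The other, MALAT1 with GAS5 (r = -0.60, permutation adjusted p = 0.020), was not, at r = -0.41 in the main run (permutation adjusted p = 0.19).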
